A study of Mus musculus with 19 samples.

Results

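The subject is a set of 9 genes of the myosin thick filament in mouse muscle: the light chains Mylpf, Myl1, Myl2 and Myl3, the light chain kinases Mylk2 and Mylk4, and the myosin-binding proteins Mybpc2, Mybpc1 and Mybph. They were picked by symbol as a gene family, at a time when earlier results of these data were known, and 9 of 9 were found among the 13067 genes of the deposited table. All 9 also passed the filter on low values, in which 11141 genes with at least 1 RPKM in at least 5 libraries were kept.

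RNA from gastrocnemius, a calf muscle built mostly of fast fibres, was sequenced in 19 libraries. The C26 rolipram group (5 libraries) and the C26 vehicle group (7 libraries) came from male Balb/c mice whose flank had been injected subcutaneously with C26 cells, a mouse adenocarcinoma line known for causing cachexia, at 2 months of age. From day 4 the rolipram mice received intraperitoneal rolipram, an inhibitor of phosphodiesterase 4 that slows the breakdown of cyclic AMP, at 3 mg/kg, and the vehicle mice received ethanol in saline. The control group (7 libraries) came from healthy mice without a tumour, for which strain, sex, age and injections are not stated. Tumour, injection and any such difference cannot be told apart in the comparisons with controls. Samples are numbered in the labels, which do not state that each came from its own animal, and p-values here cover only the spread from sample to sample.

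In the sarcomere each myosin heavy chain carries an essential and a regulatory light chain on its lever arm. Phosphorylation of the regulatory light chain by a calmodulin-dependent kinase moves myosin heads toward actin and increases twitch force in fast muscle, and a myosin phosphatase reverses it. Myosin-binding proteins C and H sit in the middle part of each side of the thick filament, where binding protein C limits how freely the heads reach actin.

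Levels are given as RPKM, reads per kilobase of gene and M (mega) reads, which sets genes of different length on a common scale. The recovered library sizes were 16.6 to 38.6 M reads in C26 rolipram, 20.1 to 45.5 M in C26 vehicle and 18.1 to 22.5 M in control. The tissue label was checked against fibre markers: of 7 skeletal muscle fibre markers all were present, the lowest being Ttn at 139, 132 and 128 RPKM in the C26 rolipram, C26 vehicle and control means. Of these 7 markers 1 was higher and 1 lower in each C26 group against control, and 1 was higher in C26 rolipram against C26 vehicle. The higher one was Des, the gene of the intermediate filament protein desmin, at 3079.7 RPKM in C26 rolipram, 2244 in C26 vehicle and 967 in control, with log2 changes of 1.22 for C26 vehicle and 1.67 for C26 rolipram against control and 0.45 between them (adjusted p = 1.32e-09, 1.31e-10 and 0.00712). The lower one was the heavy chain gene Myh4, and the other 5 (Acta1, Ckm, Ttn, Neb and Myh1) did not pass in any comparison. Over all genes tested, 43.3% were higher and 23.8% lower in C26 vehicle against control. In C26 rolipram against control 38.5% were higher and 16.4% lower, and 9.78% were higher in C26 rolipram against C26 vehicle. The summed fibre markers still ran lower in the C26 groups than in control, with overlap. They were 28339 to 46082 RPKM in C26 rolipram, 24583 to 42694 in C26 vehicle and 39172 to 47481 in control. In these whole-muscle libraries, fewer cells of a type and less RNA per cell cannot be told apart.

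Together the 9 genes took 1.26 to 2.71% of all RPKM in C26 rolipram and 1.29 to 2.23% in C26 vehicle, against 3.09 to 4.84% in control, with no overlap between either C26 group and control. Most of this sum was Mylpf and Myl1, with 0.89 and 0.41% in the C26 rolipram means, 0.68 and 0.39% in C26 vehicle and 2.14 and 1.23% in control. Mybpc2 and Mylk2 took a higher share in both C26 means than in control. In control muscle Mylpf stood first and was the 7th most abundant gene of the table, followed by Myl1 in 15th place and Mybpc2 in 31st. Mybpc1, Mylk4, Mylk2, Myl3, Myl2 and Mybph followed in that order of mean RPKM. Among neighbours in that control order, Mylpf and Myl1 overlapped between libraries, and so did Mybpc1 with Mylk4, Mylk4 with Mylk2, and Myl3 with Myl2. In C26 vehicle muscle Mylk2 stood 4th, above Mybpc1 with no overlap, and Mylk4 lay 8th at 3047th place in the table, against 102nd in control.

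Differences were tested with limma on log2(RPKM + 1), with Benjamini-Hochberg adjustment over all 11141 genes, and a gene was called at an adjusted p under 0.05. In C26 vehicle against control 6 of the 9 genes fell, where 23.8% of all genes tested were lower, and Mylk2 rose, where 43.3% were higher. In 5 of the 9 genes every C26 vehicle library lay below every control library (12.2% of all genes), and in Mylk2 every one lay above (26.9%). In C26 rolipram against C26 vehicle Mylk4 and Mybph rose (9.78% of all genes were higher) and Mylk2 fell (7.32% were lower). Mylk2 was then the only 1 of the 9 without overlap, below (1.8% of all genes), and none of the 9 lay wholly above (2.27%). In C26 rolipram against control 6 of the 9 genes fell, where 16.4% of all genes were lower, and Mybpc2 passed as higher, where 38.5% were. In 6 of the 9 every C26 rolipram library lay below every control library (10.7% of all genes) and in none above (24.7%).

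The median log2 change of the 9 was -1.11 in C26 vehicle minus control, 0.10 in C26 rolipram minus C26 vehicle and -1.45 in C26 rolipram minus control, beside 0.15, -0.01 and 0.15 over all genes tested. The 3 comparisons share libraries, so their values are given side by side and not as independent results. Scaling by median of ratios brought the median of all genes to 0.0042 in C26 vehicle and -0.0049 in C26 rolipram, each against control. It moved the split of calls over all genes from 4822 higher and 2646 lower to 3745 and 3658 in C26 vehicle against control, and from 4286 and 1824 to 2895 and 2964 in C26 rolipram against control. Under that scaling the 6 falls of the 9 genes in each comparison with control were still called. Counts over all genes for C26 rolipram against C26 vehicle, 1090 higher and 816 lower as deposited, depended on single libraries: they were 660 and 519 without C26 rolipram replicate 1, and 674 and 434 without replicate 2. The lower count was 521 without C26 rolipram replicate 4 and 542 without C26 vehicle replicate 5.

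**Figure D1:**
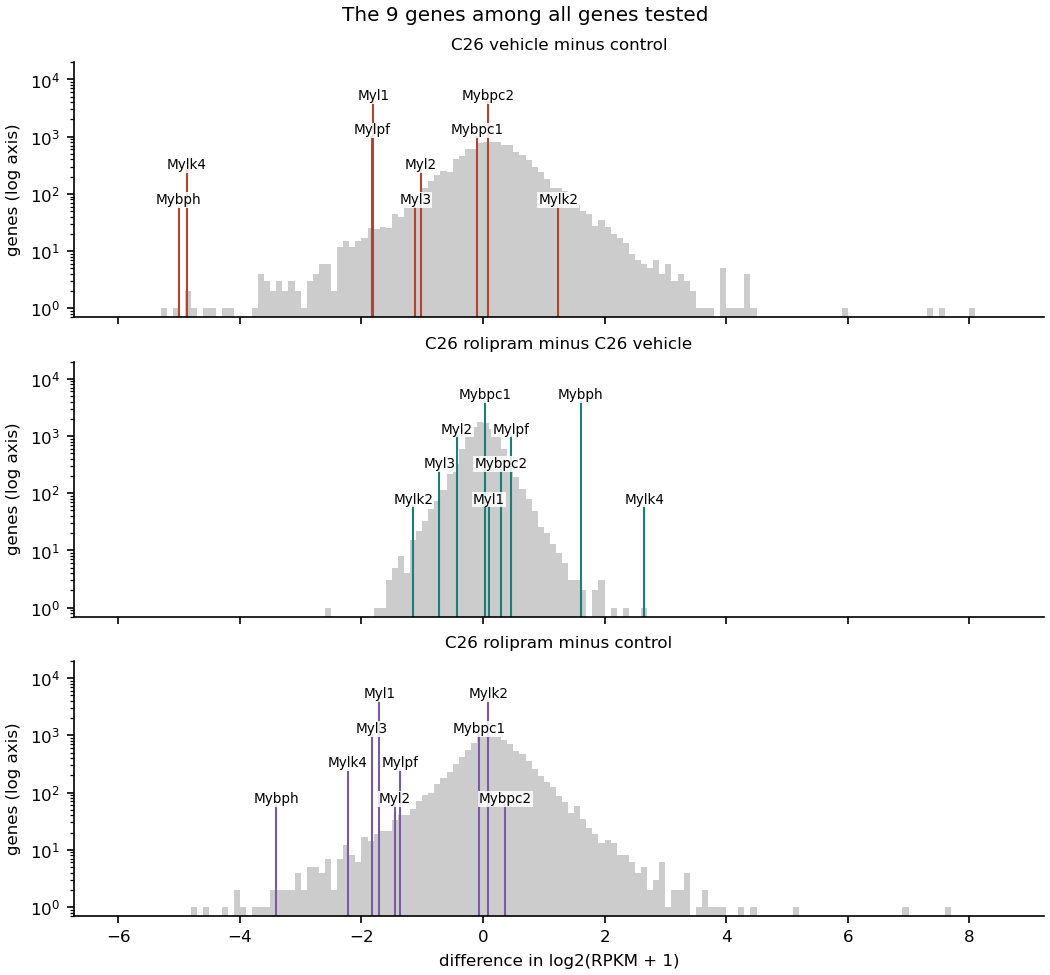
Histograms of the difference in log2(RPKM + 1) over the 11141 genes tested (x axis) against the number of genes on a log axis (y axis), in 1 panel per comparison, with a labelled line at the value of each of the 9 genes. Mybph and Mylk4 stand at the far left in C26 vehicle minus control, at -5.01 and -4.88, and at the right in C26 rolipram minus C26 vehicle, at 1.61 and 2.65. Line heights carry no value.

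Mylk4 and Mybph had the largest changes of the set, while Mylpf was the most abundant gene that fell and Mybpc2 the most abundant that did not fall. Their promoters are shown for that reason: the 250 bases before the RefSeq transcription start on GRCm38.p6, on the gene's own strand, 5′ to 3′, from RefSeq, in which 8 of the 9 genes were matched (not Mylk2). The 2 windows listed for Myl2 begin at start sites 8227 and 7762 bases upstream of its GENCODE gene and were left out of the motif counts, which leaves 7 genes. None of the 4 windows shown holds an annotated exon base, although that of Mylpf lies inside the GENCODE span of the gene. Among the other windows counted, annotated exon bases number 188 of 250 in Mybpc1, 103 in Myl1 and 32 in Myl3. Capitals mark matches to the E-box CANNTG, bound by myogenic factors such as MyoD, and to the MEF2 element, both strands having been searched.
Mybph, chr1:134193198-134193447, plus strand: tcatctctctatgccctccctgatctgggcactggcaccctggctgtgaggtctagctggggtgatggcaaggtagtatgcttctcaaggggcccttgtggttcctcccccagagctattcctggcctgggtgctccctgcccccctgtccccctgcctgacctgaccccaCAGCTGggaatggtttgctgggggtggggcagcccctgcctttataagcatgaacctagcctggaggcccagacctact
Mylk4, chr13:32783965-32784214, minus strand: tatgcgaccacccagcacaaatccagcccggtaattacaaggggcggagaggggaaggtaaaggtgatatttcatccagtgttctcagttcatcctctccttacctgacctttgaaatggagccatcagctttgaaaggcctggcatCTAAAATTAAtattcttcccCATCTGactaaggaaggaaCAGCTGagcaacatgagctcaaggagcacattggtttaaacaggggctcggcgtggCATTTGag
Mylpf, chr7:127211358-127211607, plus strand: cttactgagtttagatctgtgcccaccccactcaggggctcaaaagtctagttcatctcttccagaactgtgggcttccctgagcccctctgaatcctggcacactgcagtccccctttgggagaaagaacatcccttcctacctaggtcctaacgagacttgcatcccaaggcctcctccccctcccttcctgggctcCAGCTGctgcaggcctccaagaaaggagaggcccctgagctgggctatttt
Mybpc2, chr7:44524670-44524919, minus strand: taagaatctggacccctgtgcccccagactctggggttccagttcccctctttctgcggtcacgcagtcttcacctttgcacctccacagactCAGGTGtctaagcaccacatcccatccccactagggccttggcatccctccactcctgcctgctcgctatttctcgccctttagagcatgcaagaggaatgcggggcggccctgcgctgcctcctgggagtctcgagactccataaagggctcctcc
The E-box matches start 79 bases before the start site in Mybph, 51 before it in Mylpf, 157 before it in Mybpc2, and 83, 64 and 8 before it in Mylk4. The E-box was present in 7 of 7 windows of the set, and in 66.2% of 32851 promoter windows of the same length. Its form CAGCTG, which was looked for after the windows had been read, was present in 5 of 7 (Myl1, Mylpf, Mylk4, Mybpc1 and Mybph), and in 13% of all windows. Mybpc2, which did not fall, and Myl3, which did, lack that form in these windows.
Among these 7 the MEF2 element was found in Mylk4 alone, 103 bases before the start (2.92% of all windows). The CArG box, bound by serum response factor, was found in Myl3 alone (1.47%). The MEF3 site TCAGGTT (3.49% of all windows), the cyclic AMP response core TGACG (17.8%), the FOXO site TGTTTAC (3.17%) and the STAT site (7.02%) were found in 0 of 7. A match of letters describes the window and shows no binding.

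**Figure D2:**
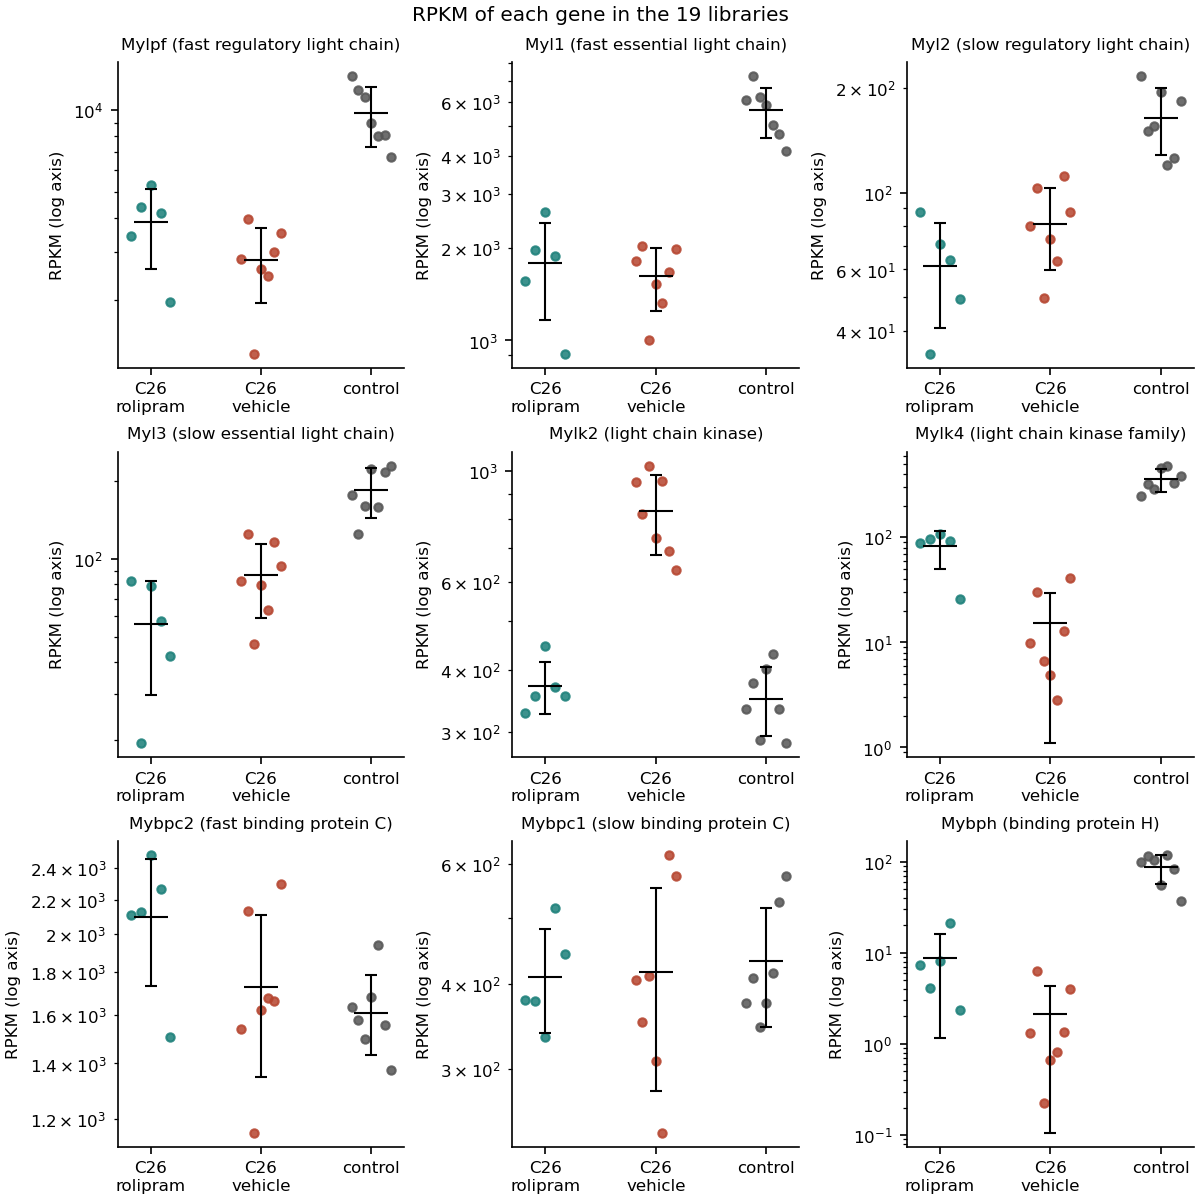
RPKM of each of the 9 genes (y axes, log scale, with different ranges) in the 5 C26 rolipram, 7 C26 vehicle and 7 control libraries (points), with the mean (long bar) and SD (whiskers). In Mylpf, Myl1, Myl2, Mylk4 and Mybph all C26 vehicle points lie below all control points, and in Mylk2 they lie above all points of the other groups.

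Mylpf encodes the regulatory light chain of fast fibres, the substrate of the light chain kinase (chromosome 7, 127208890 to 127214298 on GRCm38, plus strand). It had 3439, 4419, 5324, 4184 and 1971 RPKM in the 5 C26 rolipram libraries, 1271 to 3990.3 with a median of 2848 in C26 vehicle, and 6704 to 13332 with a median of 8943 in control. Every library of both C26 groups lay below every control library, and 3 of the 5 C26 rolipram libraries lay above every C26 vehicle library. Mylpf fell by 1.82 on the log2 scale in C26 vehicle against control (SE 0.23, adjusted p = 1.15e-06) and by 1.37 in C26 rolipram against control (SE 0.26, adjusted p = 0.000152). The difference of C26 rolipram from C26 vehicle was 0.46 (95% interval -0.08 to 0.99, adjusted p = 0.228), and 0.28 without C26 vehicle replicate 3 (adjusted p = 0.430). Quantile normalisation moved the change to -0.94 for C26 vehicle against control and to -0.60 for C26 rolipram against control, still called (adjusted p = 0.00114 and 0.0463).

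Myl1 encodes the essential light chains of fast fibres (chromosome 1, 66924295 to 66945404, minus strand). It had 1566, 1975, 2623, 1887 and 904 RPKM in C26 rolipram, 1002 to 2033 with a median of 1666 in C26 vehicle, and 4147 to 7258 with a median of 5843 in control. Of the 5 C26 rolipram libraries 1 lay above and 1 below every C26 vehicle library, and neither C26 group reached the lowest control. Myl1 fell by 1.80 on the log2 scale in C26 vehicle against control (SE 0.20, adjusted p = 1.43e-07) and by 1.71 in C26 rolipram against control (adjusted p = 2.04e-06). Between C26 rolipram and C26 vehicle the difference was 0.10 (95% interval -0.35 to 0.55, adjusted p = 0.789), with its sign turned under quantile normalisation (-0.08) and without C26 rolipram replicate 3 (-0.06) or C26 vehicle replicate 3 (-0.01), and 0.32 without C26 rolipram replicate 5 (adjusted p = 0.242). Under quantile normalisation the change of C26 vehicle against control was -1.08 (adjusted p = 4.22e-05).

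Myl2 encodes the regulatory light chain of slow fibres and of the heart ventricle (chromosome 5, 122100951 to 122113472, plus strand). It had 87.7, 34.3, 71.2, 64.0 and 49.3 RPKM in C26 rolipram, 49.7 to 112 with a median of 80.3 in C26 vehicle, and 120.3 to 217 with a median of 155 in control. All libraries of both C26 groups lay below all controls. Myl2 fell by 1.02 on the log2 scale in C26 vehicle against control (SE 0.20, adjusted p = 0.000137) and by 1.45 in C26 rolipram against control (adjusted p = 1.4e-05). The difference of C26 rolipram from C26 vehicle, -0.43, did not pass (95% interval -0.88 to 0.02, adjusted p = 0.179). It was -0.24 without C26 rolipram replicate 2 (adjusted p = 0.487) and -0.22 with library weights (adjusted p = 0.480).

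Myl3 encodes the essential light chain of slow fibres and ventricle (chromosome 9, 110741861 to 110769798, plus strand). It had 82.0, 19.4, 78.8, 57.7 and 42.2 RPKM in C26 rolipram, 46.9 to 124.7 with a median of 81.9 in C26 vehicle, and 124.3 to 229 with a median of 176 in control. A single C26 vehicle library reached the lowest control, and no C26 rolipram library did. Myl3 fell by 1.11 on the log2 scale in C26 vehicle against control (SE 0.26, adjusted p = 0.000911) and by 1.83 in C26 rolipram against control (adjusted p = 2.44e-05). Its difference between C26 rolipram and C26 vehicle was -0.72 (95% interval -1.32 to -0.12, adjusted p = 0.0908), with single libraries moving it both ways. It passed without C26 rolipram replicate 3 (-0.88, adjusted p = 0.0441) and shrank to -0.39 without replicate 2 (adjusted p = 0.314). C26 rolipram replicate 2 had the lowest Myl2 and Myl3 of all libraries. It also had the lowest sum of 5 slow fibre markers, at 87.4 RPKM, where the other C26 rolipram libraries had 242 to 391, C26 vehicle 247 to 444 and control 327 to 512. Of these 5 markers 0 were higher and 4 lower in C26 rolipram against control, 0 and 1 in C26 vehicle against control, and none passed between C26 rolipram and C26 vehicle. Over all genes tested, 16.4% were lower in C26 rolipram against control and 23.8% in C26 vehicle against control. The part of slow fibre content in the Myl2 and Myl3 results was not tested. Of the heart markers Nppa, Nppb and Tnni3 were not analysed here, and Myh6 and Tnnt2 summed to 3.11 to 11.2 RPKM in C26 rolipram, 6.67 to 14.7 in C26 vehicle and 9.14 to 17.8 in control.

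Mylk2 encodes the skeletal muscle light chain kinase, which calcium-calmodulin switches on and which phosphorylates the fast regulatory light chain (chromosome 2, 152911352 to 152923068, plus strand). It had 327, 355, 445, 369 and 355 RPKM in C26 rolipram, 634 to 1024 with a median of 819.5 in C26 vehicle, and 285 to 429 with a median of 334 in control. All 7 C26 vehicle libraries lay above all libraries of the other groups, while C26 rolipram and control overlapped. Mylk2 rose by 1.24 on the log2 scale in C26 vehicle against control, a 2.36-fold difference (SE 0.12, adjusted p = 3.59e-08). It fell by 1.15 in C26 rolipram against C26 vehicle (SE 0.13, adjusted p = 4.77e-05), and 6 of the 11141 genes had a smaller p in that comparison. C26 rolipram and control differed by 0.09 (95% interval -0.19 to 0.37, adjusted p = 0.588), a value whose sign turned under median-of-ratios scaling (-0.11) and quantile normalisation (-0.24). Both calls held under every setting tried and without any single library.

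Mylk4 encodes another protein kinase of the light chain kinase family, known less well in skeletal muscle (chromosome 13, 32700834 to 32783954, minus strand). It had 87.9, 97.2, 107, 93.4 and 25.7 RPKM in C26 rolipram, 2.86 to 40.6 with a median of 9.94 in C26 vehicle, and 248 to 482 with a median of 327 in control. C26 vehicle libraries spread over a 14.2-fold range and all lay far below the lowest control. Of the C26 rolipram libraries 4 of 5 lay above every C26 vehicle library, replicate 5 lay inside the C26 vehicle range, and none reached the controls. Mylk4 fell by 4.88 on the log2 scale in C26 vehicle against control, 29.4-fold on the RPKM + 1 scale (SE 0.43, adjusted p = 6.97e-09), the 4th lowest change of 11141 genes. It rose by 2.65 in C26 rolipram against C26 vehicle (SE 0.47, adjusted p = 0.00135), the highest change of all genes tested. Without replicate 5 of C26 rolipram that rise was 3.03 (adjusted p = 0.000816), and with library weights it was 3.27. Against control, C26 rolipram was still lower, by -2.22 (SE 0.47, adjusted p = 0.000451).

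Mylk2 and Mylk4 thus moved apart in C26 vehicle against control, Mylk2 up and Mylk4 down. Both differed in the opposite direction between C26 rolipram and C26 vehicle. In C26 rolipram Mylk2 lay within the control spread except in replicate 3, while Mylk4 remained below all controls.

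Mybpc2 encodes the fast isoform of myosin-binding protein C (chromosome 7, 44501699 to 44524656, minus strand). It had 2109, 2124, 2487, 2262 and 1506 RPKM in C26 rolipram, 1156 to 2296 with a median of 1664 in C26 vehicle, and 1375 to 1939.6 with a median of 1578 in control. The groups overlapped, with 4 of 5 C26 rolipram libraries above every control. Between C26 vehicle and control the difference was 0.08 (95% interval -0.20 to 0.36, adjusted p = 0.625; -0.11 under median-of-ratios scaling, and 0.39 with adjusted p = 0.0143 under quantile normalisation). Between C26 rolipram and C26 vehicle it was 0.29 (95% interval -0.02 to 0.60, adjusted p = 0.180). C26 rolipram against control passed at 0.37 (SE 0.15, adjusted p = 0.0404; 0.62 under quantile normalisation). It no longer passed with median-of-ratios scaling (0.17, adjusted p = 0.404), nor without any of 9 of the 12 libraries taken out in turn, namely C26 rolipram replicates 1 to 4 and control replicates 1, 2, 3, 6 and 7, with values of 0.30 to 0.38.

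Mybpc1 encodes the slow isoform of binding protein C, which fast fibres also make (chromosome 10, 88518279 to 88605152, minus strand). It had 378, 378, 334, 518 and 442 RPKM in C26 rolipram, 241 to 619 with a median of 405 in C26 vehicle, and 346 to 576 with a median of 408 in control. The 3 groups overlapped over most of their ranges. None of the 3 differences passed: -0.10 for C26 vehicle against control (95% interval -0.47 to 0.27, adjusted p = 0.642), 0.03 for C26 rolipram against C26 vehicle (-0.38 to 0.44, adjusted p = 0.935; sign turned without any of C26 rolipram replicates 4 and 5 and C26 vehicle replicates 4 and 5) and -0.07 for C26 rolipram against control (-0.48 to 0.34, adjusted p = 0.788).

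Mybph encodes myosin-binding protein H, which resembles the end of binding protein C that anchors to the filament (chromosome 1, 134193448 to 134201232, plus strand). It had 7.36, 4.13, 8.04, 21.5 and 2.39 RPKM in C26 rolipram, 0.224 to 6.38 with a median of 1.305 in C26 vehicle, and 37.5 to 117 with a median of 99.9 in control. Every C26 library lay below the lowest control, the closest being C26 rolipram replicate 4. Of the 5 C26 rolipram libraries 3 lay above every C26 vehicle library. Mybph fell by 5.01 on the log2 scale in C26 vehicle against control (SE 0.40, adjusted p = 2.2e-09), the 2nd lowest change of 11141 genes, and by 3.40 in C26 rolipram against control (SE 0.44, adjusted p = 2.74e-06). With a pseudocount of 0.1 in place of 1 the change of C26 vehicle against control was -5.84. It rose by 1.61 in C26 rolipram against C26 vehicle (SE 0.44, adjusted p = 0.0177; 2.23 with the pseudocount of 0.1), the 10th highest change. That call was lost without C26 rolipram replicate 4 (1.23, adjusted p = 0.0606) and in a fit of these 2 groups alone (adjusted p = 0.0554). The lowest value, in C26 vehicle replicate 3, corresponds to about 23.8 reads by the recovered library size. Of the exonic length of Mybph 49.9% lies under Adora1 on the opposite strand. The strand setting of the counting was not given in the sources used here, so reads of the pair may not be separable. Adora1 itself averaged 0.131 RPKM in C26 rolipram, 0.187 in C26 vehicle and 0.400 in control.

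**Figure D3:**
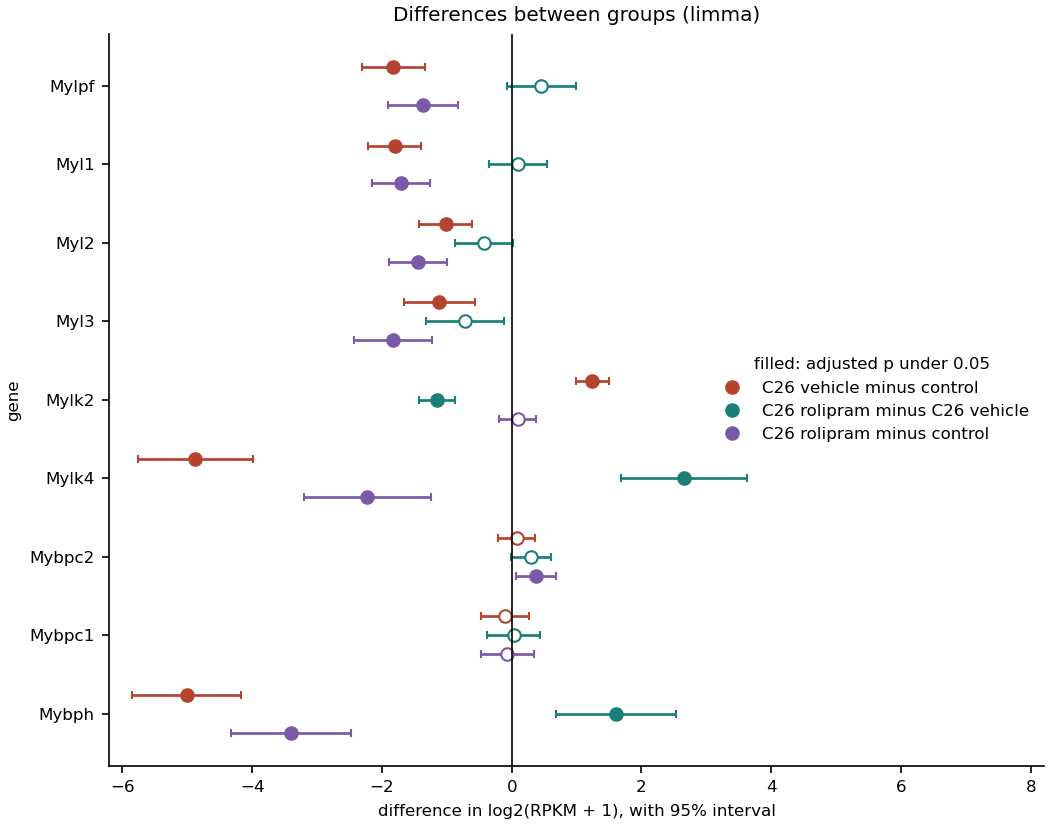
Difference in log2(RPKM + 1) with its 95% interval (x axis) for each of the 9 genes (y axis) in the 3 comparisons, filled where the adjusted p was under 0.05. Mylk4 and Mybph reach -4.88 and -5.01 in C26 vehicle minus control and turn to 2.65 and 1.61 in C26 rolipram minus C26 vehicle, Mylk2 runs the other way at 1.24 and -1.15, and the intervals of Mybpc1 include 0 throughout.

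Ratios of 2 genes within a library do not depend on how that library was scaled. For 9 pairs the log2 ratio was compared in the 3 comparisons by an exact two-sided permutation test of group means, with adjustment over all 27 tests. The smallest p that these tests can give is 0.000583 for 7 against 7 libraries and 0.00126 for 5 against 7.

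The ratio of Mylk4 to Mylk2 had a median of 0.254 in C26 rolipram, 0.0105 in C26 vehicle and 0.996 in control. The RPKM values of the 2 kinase genes were near equal in control muscle and far apart in C26 vehicle. A ratio near 1 between 2 genes rests on the gene lengths used for RPKM, whose annotation is not given. Differences of the log2 ratio between groups do not depend on these lengths. The 3 groups did not overlap. The log2 ratio was lower by -6.29 in C26 vehicle against control (exact permutation adjusted p = 0.00487), higher by 3.96 in C26 rolipram against C26 vehicle (exact permutation adjusted p = 0.00758) and lower by -2.33 in C26 rolipram against control (exact permutation adjusted p = 0.00487).

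The ratio of Mylk2 to its substrate Mylpf had a median of 0.0881 in C26 rolipram, 0.281 in C26 vehicle and 0.0412 in control. Both C26 groups lay above all controls. Relative to control the log2 ratio was higher by 3.07 in C26 vehicle and by 1.46 in C26 rolipram (exact permutation adjusted p = 0.00487 for both). It was lower by -1.61 in C26 rolipram against C26 vehicle (exact permutation adjusted p = 0.00847), where replicate 5 of C26 rolipram reached into the C26 vehicle range.

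The ratio of Mybph to Mybpc2 had a median of 0.00323 in C26 rolipram, 0.000805 in C26 vehicle and 0.0605 in control, with both C26 groups below all controls. The log2 difference was -6.08 for C26 vehicle and -4.00 for C26 rolipram against control (exact permutation adjusted p = 0.00487 for both). It was 2.08 for C26 rolipram against C26 vehicle (exact permutation adjusted p = 0.0261), a call lost without C26 rolipram replicate 1 (2.05, adjusted p = 0.0545) or replicate 4 (1.69, adjusted p = 0.0626).

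Among the fast light chains, Myl1 relative to Mylpf had a median of 0.456 in C26 rolipram, 0.561 in C26 vehicle and 0.610 in control. The 5 C26 rolipram ratios lay within 0.447 to 0.493, below all C26 vehicle ratios. The log2 difference was -0.36 for C26 rolipram against C26 vehicle (exact permutation adjusted p = 0.00847) and -0.34 against control (exact permutation adjusted p = 0.0146). For C26 vehicle against control it was 0.02 (exact permutation adjusted p = 0.848).

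Against Myh4, the heavy chain of the fastest fibres, Mylpf had a median ratio of 1.28 in C26 rolipram, 0.681 in C26 vehicle and 1.06 in control. It was lower in C26 vehicle than in control by -0.86 (exact permutation adjusted p = 0.00847). It was higher in C26 rolipram than in C26 vehicle by 0.96 (exact permutation adjusted p = 0.017; 0.81 with adjusted p = 0.0529 without C26 rolipram replicate 1). Between the C26 groups Mylpf itself differed by 0.46 and Myh4 by -0.51, and neither passed (limma adjusted p = 0.228 and 0.0690). Myh4 ranged from 1846 to 5705 RPKM in C26 rolipram. The ratio of Mylpf to Myh4 differed by 0.10 between C26 rolipram and control (exact permutation adjusted p = 0.770). Myl1 against Myh4 was lower in C26 vehicle than in control by -0.84 (exact permutation adjusted p = 0.00487), and differed by 0.60 between C26 rolipram and C26 vehicle (exact permutation adjusted p = 0.0502) and by -0.24 between C26 rolipram and control (exact permutation adjusted p = 0.399). Without C26 rolipram replicate 5 or C26 vehicle replicate 2 the difference of 0.60 became 0.74 and 0.69 and passed (adjusted p = 0.0227 and 0.0357).

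Both slow over fast light chain ratios were higher in C26 vehicle than in either other group. Myl2 relative to Mylpf had a median of 0.0153 in C26 rolipram, 0.0281 in C26 vehicle and 0.0156 in control. The log2 difference was 0.80 for C26 vehicle against control (exact permutation adjusted p = 0.00758) and -0.89 for C26 rolipram against C26 vehicle (exact permutation adjusted p = 0.00847). Myl3 relative to Myl1 differed by 0.68 (exact permutation adjusted p = 0.017) and -0.83 (exact permutation adjusted p = 0.0284) in the same comparisons. The second of these was lost without C26 rolipram replicate 2 (-0.43, adjusted p = 0.109), replicate 3 (-0.84, adjusted p = 0.0646) or replicate 4 (-0.84, adjusted p = 0.0682). C26 rolipram and control differed by -0.09 in Myl2 over Mylpf and by -0.15 in Myl3 over Myl1 (exact permutation adjusted p = 0.809 for both), values whose sign turned without C26 rolipram replicate 2 (0.17 and 0.25). Mybpc1 over Mybpc2 passed in none of the 3 comparisons, with medians of 0.179 in C26 rolipram, 0.252 in C26 vehicle and 0.231 in control. Without C26 rolipram replicate 5 its difference of -0.44 between C26 rolipram and control became -0.58 and passed (exact permutation adjusted p = 0.0327).

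**Figure D4:**
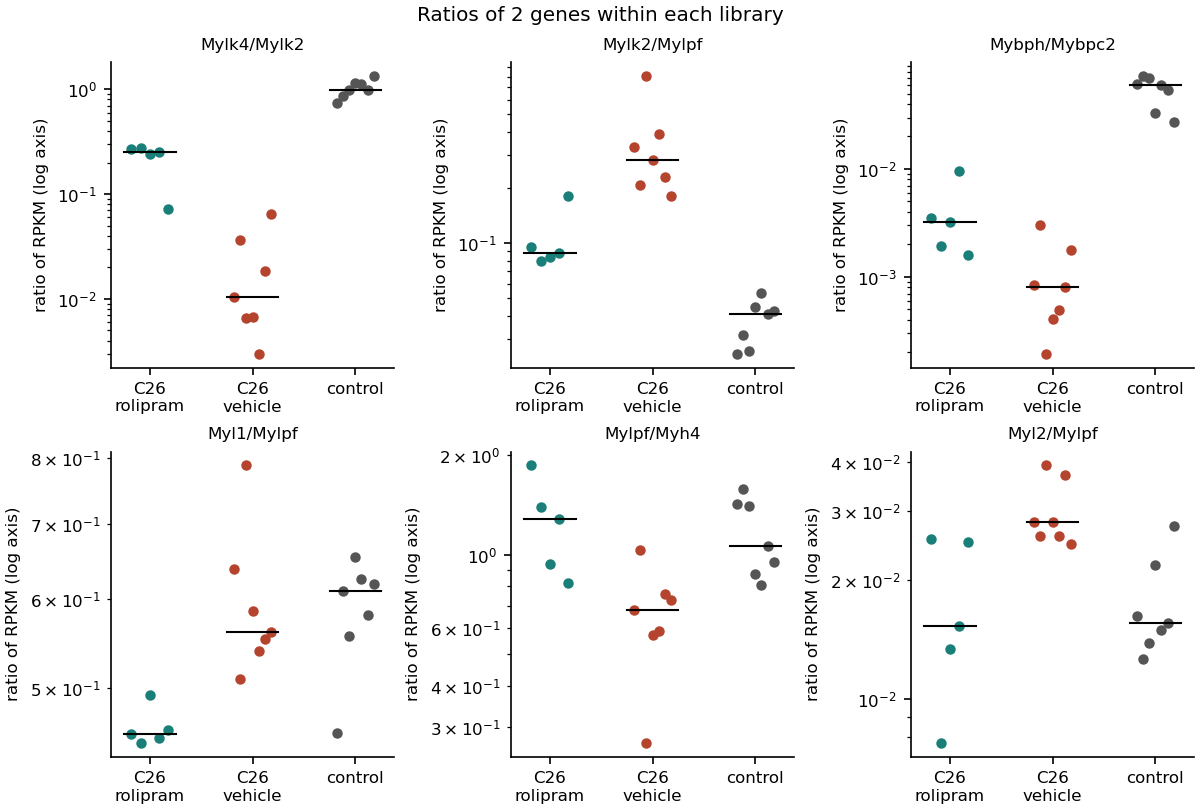
Ratio of RPKM of 2 genes within a library (y axes, log scale, with different ranges) in the 5 C26 rolipram, 7 C26 vehicle and 7 control libraries (points), with the group median as a line. Mylk4 over Mylk2 separates the 3 groups, and Myl1 over Mylpf holds the C26 rolipram points within 0.447 to 0.493.

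Several extremes fell in the same libraries. C26 vehicle replicate 3 was the lowest of its group in 6 of the 9 genes, C26 rolipram replicate 5 in 5, and control replicate 7 in 5, while C26 rolipram replicate 3 was the highest of its group in 5. The same C26 replicates had the lowest summed fibre markers of their groups, at 28339 RPKM in C26 rolipram replicate 5 and 24583 in C26 vehicle replicate 3. C26 vehicle replicate 3 was also the largest library, at 45.5 M reads. Markers of other cells differed between the groups as well. Beside the counts below, 43.3% of all genes tested were higher and 23.8% lower in C26 vehicle against control. In C26 rolipram against control 38.5% were higher and 16.4% lower. The 5 erythroid markers summed to 202 to 551 RPKM in C26 rolipram, 310 to 1012 in C26 vehicle and 90.6 to 246 in control, and 5 of 5 were higher in each C26 group against control. Of 5 tested macrophage markers 4 were higher in each C26 group against control, with sums of 21.8 to 72.2 RPKM in C26 rolipram, 32.8 to 86.9 in C26 vehicle and 11.1 to 32.3 in control. Of 6 fibroblast markers 4 were lower in each, with sums of 157 to 220.04 RPKM in C26 rolipram, 143 to 465.8 in C26 vehicle and 216 to 520.5 in control. Of 5 tested tendon markers 4 were lower in each, with sums of 23.4 to 49.5, 34.1 to 123 and 99.2 to 188 RPKM in the C26 rolipram, C26 vehicle and control libraries. Some genes of these 4 lists were low. The tendon regulator Mkx averaged 0.196, 0.301 and 0.577 RPKM and the macrophage marker Adgre1 0.534, 0.650 and 0.552 RPKM in the same order. The tendon markers Kera and Tnmd averaged 0.239 and 0.362 RPKM in C26 rolipram, 0.506 and 0.816 in C26 vehicle, and 8.33 and 13.8 in control. The part of these cells in the results of the 9 genes was not tested.

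For each of the 9 genes, the 3 genes with the most similar course were found by the root mean square difference of log2(RPKM + 1) over the 19 libraries, each gene taken relative to its control mean. Nearest to Mylk4 were Ky, a cytoskeletal protein gene of muscle (0.85), Mybph (0.92) and Casq1, the calcium buffer of fast sarcoplasmic reticulum (0.94). Nearest to Mybph were Actc1, the cardiac actin gene (0.62), Casq1 (0.67) and Nmrk2, a nicotinamide riboside kinase of muscle (0.71). These partners had averages of 9.51, 3.60 and 72.8 RPKM in C26 rolipram, C26 vehicle and control for Ky, 161, 99.1 and 1635 for Casq1, 12.4, 6.69 and 168 for Actc1, and 14.1, 3.33 and 149 for Nmrk2. Having been picked for a similar course in these same libraries, they too were lowest in C26 vehicle. Nearest to Mylk2 were Dctn4, a dynactin subunit gene (0.24), Mafg, a small Maf transcription factor (0.25), and Gtf3c4 (0.26). Myl3 had Myl2 (0.34), Ldhb (0.39) and the oxidative fibre myosin gene Myh2 (0.42) as its nearest. Mylpf and Myl1 were close to each other (0.23), and Stac3, a protein of the calcium release complex, was close to Mylpf (0.25). The gene nearest to Myl1 was Mylf-ps (0.13), a light chain pseudogene by its symbol, with 11.7, 10.6 and 38.8 RPKM in C26 rolipram, C26 vehicle and control, and reads of the fast light chain genes could have been assigned to it.

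Other genes of the pathway were counted from fixed lists, beside the shares of all genes given above. Of 6 tested further light chains 3 were lower in C26 vehicle against control, 0 passed between C26 rolipram and C26 vehicle, and 1 was higher and 3 lower in C26 rolipram against control, with median changes of -0.31, 0.10 and -0.35. Myl6b, an essential light chain of slow and non-muscle myosin, averaged 2.53 RPKM in C26 rolipram, 2.76 in C26 vehicle and 5.60 in control (-0.83 for C26 vehicle against control, adjusted p = 1.56e-05). Myl9, the regulatory chain of smooth muscle, averaged 21.6, 19.5 and 37.8 RPKM in the same order (-0.98, adjusted p = 4.46e-05). The atrial and embryonic essential chain Myl4 averaged 3.14, 2.85 and 4.77 RPKM (-0.52, adjusted p = 0.00715). Of 5 tested smooth muscle and pericyte markers 1 was higher and 2 lower in C26 vehicle against control.

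Of 7 tested kinases and calmodulin genes 1 was higher and 4 lower in C26 vehicle against control, 1 was higher in C26 rolipram against C26 vehicle, and 1 was higher and 3 lower in C26 rolipram against control (medians -0.26, 0.25 and -0.38). Calmodulin, the calcium sensor that switches on Mylk2, is encoded by several genes. Calm2 averaged 51.6 RPKM in C26 rolipram, 40.3 in C26 vehicle and 143 in control, and Calm3 49.8, 44.1 and 162.5. Calm2 fell by 1.86 and Calm3 by 2.06 on the log2 scale in C26 vehicle against control (adjusted p = 3.12e-08 and 4.44e-06), and no C26 library of either overlapped a control. Dapk3, a calmodulin-independent kinase of the regulatory light chain, averaged 29.3, 19.998 and 9.31 RPKM. It rose by 1.01 in C26 vehicle against control (adjusted p = 1.56e-06) and by 0.50 in C26 rolipram against C26 vehicle (adjusted p = 0.0242). The smooth muscle kinase Mylk averaged 3.36, 3.96 and 3.74 RPKM and did not pass in any comparison.

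Of 7 myosin phosphatase genes 4 were higher and 1 lower in C26 vehicle against control, 2 higher and 1 lower in C26 rolipram against C26 vehicle, and 3 higher and 1 lower in C26 rolipram against control (medians 0.29, 0.12 and 0.28). These counts join subunits (Ppp1cb, Ppp1r12a, Ppp1r12b and Ppp1r12c) with inhibitors of the phosphatase (Ppp1r14a, Ppp1r14b and Ppp1r14c). Ppp1r14c, an inhibitor of the phosphatase, fell by 1.01 in C26 vehicle against control (26.02 RPKM in C26 rolipram, 17.95 in C26 vehicle and 36.9 in control, adjusted p = 2.7e-07), and rose by 0.52 in C26 rolipram against C26 vehicle (adjusted p = 0.00954). Ppp1r14b, another inhibitor of the family, averaged 53.1, 34.6 and 25.9 RPKM and rose by 0.36 in C26 vehicle against control (adjusted p = 0.0481) and by 0.63 in C26 rolipram against C26 vehicle (adjusted p = 0.0168). Of the subunits, Ppp1r12a changed by 0.68 in C26 vehicle against control and by -0.41 in C26 rolipram against C26 vehicle (adjusted p = 4.59e-05 and 0.0378). Ppp1cb and Ppp1r12c were higher in C26 vehicle against control, by 0.29 and 0.44 (adjusted p = 0.027 and 0.000508). Neither passed between the C26 groups. The striated muscle subunit Ppp1r12b did not pass in any comparison, at 35.0, 38.4 and 40.6 RPKM.

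Of 5 tested other thick filament proteins 2 were lower in C26 vehicle against control, 2 higher in C26 rolipram against C26 vehicle, and 2 higher and 1 lower in C26 rolipram against control (medians 0.02, 0.07 and 0.17). Myom2, the M-band protein of fast fibres, averaged 582, 274 and 357 RPKM in C26 rolipram, C26 vehicle and control. It fell by 0.39 in C26 vehicle against control (adjusted p = 0.00242) and rose by 1.07 in C26 rolipram against C26 vehicle (adjusted p = 4e-05), above all libraries of both other groups. Myom3 was lower in both C26 groups against control, by -0.98 in C26 rolipram (adjusted p = 0.000163) and -0.84 in C26 vehicle (adjusted p = 0.000184).

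Of 6 tested heavy chains 2 fell in C26 vehicle against control, none passed between C26 rolipram and C26 vehicle, and 4 fell in C26 rolipram against control (medians -0.41, -0.48 and -1.20). Myh4 averaged 3277 RPKM in C26 rolipram, 4340.1 in C26 vehicle and 8529.9 in control, and fell by 0.97 in C26 vehicle (adjusted p = 5.42e-05) and by 1.47 in C26 rolipram against control (adjusted p = 2.31e-06). Myh2 fell by 1.26 and 1.70 in the same comparisons (adjusted p = 0.000102 and 1.69e-05). The slow chain Myh7 fell by 1.34 in C26 rolipram against control (26.03 RPKM in C26 rolipram, 43.0 in C26 vehicle and 56.5 in control, adjusted p = 0.00696), and Myh6 by 1.06 (adjusted p = 0.00659). Myh1 averaged 479, 587 and 658 RPKM and did not pass in any comparison.

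Of 5 tested myosin folding and assembly genes 2 were higher and 1 lower in each C26 group against control, and none passed between C26 rolipram and C26 vehicle (medians 0.33 in C26 vehicle and 0.16 in C26 rolipram against control, and -0.18 between the C26 groups). The chaperone Hsp90ab1 averaged 1197 RPKM in C26 rolipram, 1382 in C26 vehicle and 512 in control, a rise of 1.42 in C26 vehicle (adjusted p = 5.65e-10). Smyd1, a muscle methyltransferase needed for myosin assembly in zebrafish, averaged 75.0, 63.4 and 144 RPKM, a fall of 1.23 in C26 vehicle (adjusted p = 6.4e-06).

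Of 4 muscle ubiquitin ligase genes (Trim63, Trim55, Trim54 and Fbxo32) 3 were higher and 1 lower in C26 vehicle against control, 3 lower in C26 rolipram against C26 vehicle, and 2 higher and 1 lower in C26 rolipram against control (medians 2.45, -0.68 and 1.74). Trim63, whose product MuRF1 is known in mice for removing light chains and binding protein C from the filaments of wasting muscle, averaged 1171 RPKM in C26 rolipram, 2589 in C26 vehicle and 116 in control. Fbxo32, the ligase atrogin-1, averaged 404, 744 and 38.4 RPKM. Trim63 fell by 1.11 and Fbxo32 by 0.87 in C26 rolipram against C26 vehicle (adjusted p = 0.0016 and 0.0078).

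Of 15 tested fibre type and muscle gene regulators 5 were higher and 6 lower in C26 vehicle against control, 4 higher and 3 lower in C26 rolipram against C26 vehicle, and 4 and 4 in C26 rolipram against control (medians -0.08, 0.02 and -0.10). Mef2c, a transcription factor of many sarcomere genes, averaged 27.3 RPKM in C26 rolipram, 15.4 in C26 vehicle and 70.9 in control. It fell by 2.35 in C26 vehicle against control (adjusted p = 3.61e-07) and rose by 0.96 in C26 rolipram against C26 vehicle (adjusted p = 0.0334). Myod1, the E-box factor of fast muscle, averaged 14.0, 5.48 and 12.9 RPKM, fell by 1.28 in C26 vehicle against control (adjusted p = 0.00149) and rose by 1.296 in C26 rolipram against C26 vehicle (adjusted p = 0.0168). Myf6 rose by 1.18 in C26 vehicle against control and by 0.83 in C26 rolipram against C26 vehicle (adjusted p = 0.00014 and 0.0285). Myog rose by 1.01 in C26 rolipram against C26 vehicle (adjusted p = 0.0107), at 9.18 RPKM in C26 rolipram, 3.95 in C26 vehicle and 5.52 in control.

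**Figure D5:**
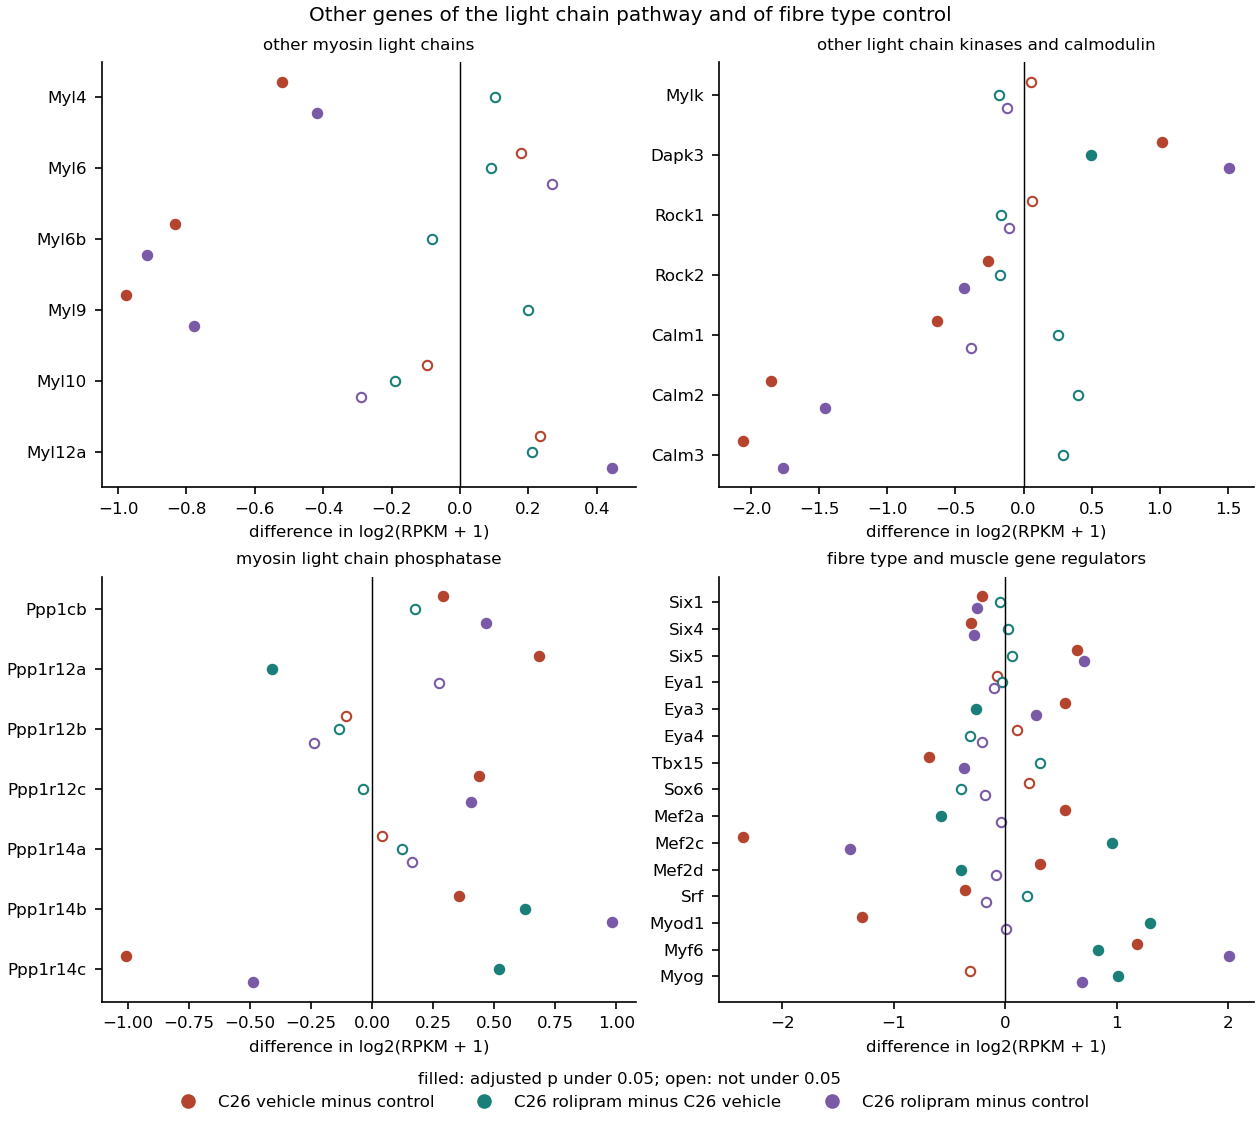
Difference in log2(RPKM + 1) (x axes, with different ranges) for the further light chains, kinases and calmodulin genes, phosphatase genes and regulators (y axes) in the 3 comparisons, filled where the adjusted p was under 0.05. Calm2 and Calm3 lie at -1.86 and -2.06 and Mef2c at -2.35 in C26 vehicle minus control.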

How the data were processed

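Per the labels' protocols, snap-frozen gastrocnemius gave total RNA, from which oligo d(T) beads took the polyA fraction for a strand-marking library kit. Per the submitters' processing notes, STAR 2.5.3a, featureCounts 1.6.4 and the build mm10 were used. Annotation, strand setting and the RPKM tool are not given in the sources used here. RPKM values made by the authors form the deposited table, for 13067 gene symbols in 19 libraries, without counts. Library sizes were recovered from the steps between low values, which were whole reads (100% within 0.05 read) above a floor of about 0.25 read, and are estimates that rest on GENCODE M21 gene lengths.

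The 9 genes, the other gene lists and the 9 ratio pairs were chosen with earlier results of these data known. Values were tested as log2(RPKM + 1) in limma 3.58.1 (R 4.3.3; trend, robust) with 1 mean per group over all 19 libraries, after a filter of at least 1 RPKM in at least 5 libraries. P-values were two-sided and adjusted by Benjamini-Hochberg over 11141 genes. The fit and the exact permutation tests (3432 or 792 assignments, scipy 1.17.1) were tested on simulated data first. Named genes were the 9, and from each list the members that passed with a change of at least 1, at least the 2 with the smallest p and the direct partners of the 9. Mef2a, Mef2d, Ppp1cb, Ppp1r12a and Ppp1r12c were named in addition, as relatives or partners of genes so named. Gene positions are those of GENCODE M21 (GRCm38). Alternatives were another pseudocount, no filter, median-of-ratios or quantile scaling, fits of 2 groups, no trend, library weights, a replicate block and each library left out.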

Additional observations from a re-analysis of the deposited data

Results flagged for a closer look

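In a check of 54 groups of values (the 9 genes and the 9 ratios in each of the 3 groups), 4 had a single library set apart from the others by Dixon's 95% criterion, which chance alone flags in about 1 in 20 groups. All 4 were in C26 rolipram. Mylk4 was 25.7 RPKM in C26 rolipram replicate 5, where the next lowest library of the group had 87.9. In the same library the log2 ratio of Mylk4 to Mylk2 was -3.79, with the next at -2.05, and the log2 ratio of Mylk2 to Mylpf was -2.47, with the next at -3.39. The summed skeletal muscle fibre markers of that library were 28339 RPKM, the lowest of its group. In C26 rolipram replicate 3 the log2 ratio of Myl1 to Mylpf was -1.02, with the next at -1.12. Their causes were not tested.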

How the results depend on the processing

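No change of sign of a called gene was found among the 9, under any setting or left-out library. All 6 falls in each comparison with control, and the calls of Mylk2 and of Mylk4, were kept under every one of them. Signs turned only where a value was not called. Under median-of-ratios scaling Mybpc2 in C26 vehicle against control was -0.11 and Mylk2 in C26 rolipram against control -0.11. Under quantile normalisation Myl1 and Mybpc1 in C26 rolipram against C26 vehicle were -0.083 and -0.093, and Mylk2 in C26 rolipram against control was -0.24.

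Of the 9 genes, quantile normalisation called 2 higher in C26 vehicle against control, a fit of the 2 groups alone called 1 higher in C26 rolipram against C26 vehicle, and median-of-ratios scaling and the replicate block called 0 higher in C26 rolipram against control. Over all genes, the fit of the 2 groups alone called 467 higher and 300 lower in C26 rolipram against C26 vehicle, and library weights called 1379 lower. In C26 rolipram against control 2964 were lower under median-of-ratios scaling and 2794 under quantile normalisation.

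With single libraries left out, C26 rolipram against C26 vehicle gave 1 to 2 higher and 1 to 2 lower of the 9, and 660 to 1446 higher and 434 to 1071 lower of all genes. C26 rolipram against control gave 0 to 1 higher of the 9. Mybpc1 ranged from -0.20 to 0.021 in C26 vehicle against control, -0.089 to 0.14 in C26 rolipram against C26 vehicle and -0.16 to 0.0046 in C26 rolipram against control, and Myl1 from -0.061 to 0.32 in C26 rolipram against C26 vehicle. The log2 ratio of Myl1 to Mylpf ranged from -0.049 to 0.056 in C26 vehicle against control. In C26 rolipram against control Mylpf over Myh4 ranged from -0.054 to 0.24, Myl3 over Myl1 from -0.36 to 0.25 and Myl2 over Mylpf from -0.26 to 0.17.

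Whether sample numbers shared by the groups pair the libraries was not tested. Deviations of same-numbered libraries correlated by -0.36 to 0.39 in C26 rolipram and C26 vehicle and by -0.10 to 0.03 in C26 rolipram and control. In C26 vehicle and control they correlated by -0.04 to 0.30. In the same order, 0 of 5, 0 of 5 and 3 of 7 correlated best with their own number. With the replicate block Mylk2 in C26 rolipram against control was -0.0049 and Mybpc1 0.12, Myl3 over Myl1 was 0.10 and Myl2 over Mylpf 0.023, and Mybpc2 in C26 rolipram against control was 0.39 (adjusted p = 0.0724). The block left 1246 higher and 852 lower over all genes in C26 rolipram against C26 vehicle. All 18 ratio calls were lost in the exact sign-flip test that keeps the block. With 5 shared numbers its p cannot go below 0.0625, and with 7, in C26 vehicle against control, below 0.0156. With all 7 numbers shared in C26 vehicle against control, the block leaves the differences unchanged by construction. They were -6.29 for Mylk4 over Mylk2, 3.07 for Mylk2 over Mylpf and -6.08 for Mybph over Mybpc2 (sign-flip adjusted p = 0.0844 each). The causes were not tested.

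By the recovered library sizes the lowest value of Mybph rests on about 23.8 reads and that of Mylk4 on about 449.6, both in C26 vehicle.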

Other observations

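The 9 genes differed in how much they varied between libraries of a group. The coefficient of variation of Mylk4 was 39.4% in C26 rolipram, 92.9% in C26 vehicle and 24.2% in control, and that of Mybph was 86.6%, 107% and 35.0%. Mylk2 stayed narrow in all groups, at 12.1%, 18.1% and 15.7%, and Mybpc2 had 17.4%, 21.99% and 10.96%. The highest Mybph value was 28.4 times the lowest among C26 vehicle libraries, against 3.13 times among controls. C26 vehicle replicates 2 and 7 had the highest Mylk4 and Mybph of their group, at 30.1 and 40.6 RPKM for Mylk4 and 6.38 and 4.04 RPKM for Mybph, and also the highest summed fibre markers, at 42615 and 42694 RPKM. C26 vehicle replicate 7 was in addition the highest of its group in the sums of fibroblast (465.8 RPKM), tendon (123), macrophage (86.9), erythroid (1012), smooth muscle and pericyte (178) and endothelial markers (88.5), while replicate 2 had the lowest macrophage sum (32.8). The part of these cells was not tested.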
